A study of Mus musculus with 10 samples.

Results

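The MHC class I antigen presentation genes were examined in lung tumours labelled as Control or as knockout (KO) of the glucose transporter Glut1. The group held 10 genes (H2-K1, H2-D1, B2m, Tap1, Tap2, Tapbp, Psmb8, Psmb9, Psmb10 and Nlrc5), chosen by symbol for their role, out of 39017 genes in the count table, and each symbol had 1 row. Read counts came from 10 RNA sequencing libraries of mouse lung tumours, all on a C57BL6/J background and all carrying K-rasLSL-G12D/WT and p53Fl/Fl (KP). The 5 libraries labelled Glut1-KO came from mice that also carried Glut1Fl/Fl (KPG1, labelled homozygous fl/fl). The 5 Control libraries are labelled heterozygous fl/wt, while the design text calls the controls Glut1 wild-type and the methods allow for both. All mice of both groups had received Ad5CC10-Cre, an adenovirus that expresses Cre recombinase from a promoter active in CC10-positive club cells, into the trachea, so deletion was limited to cells in which this promoter was active. Tumours were taken 20 weeks and 1 day later, dissociated, and depleted of CD45-positive immune cells with magnetic beads before RNA extraction. The mice's age is not stated in the labels. By their sex labels, the 5 controls were male, Glut1-KO replicates 1, 2 and 3 female, and Glut1-KO replicates 4 and 5 male.

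MHC class I molecules show peptides from inside the cell to CD8 T cells at the surface of almost every nucleated cell. Proteins are cut by the proteasome, in which interferon-induced subunits can replace the constitutive catalytic ones, and the peptides are pumped into the endoplasmic reticulum by the TAP transporter and loaded onto a heavy chain bound to beta-2 microglobulin. The genes are induced by interferon and by the transactivator Nlrc5, and tumours are known to lower them at times, which hides them from T cells.

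Each library held between 35.3 and 49.8 M counts. No 2 libraries of a group agreed within sampling noise. Slc2a1, the gene of Glut1, stood at 94.8 ± 16.9 CPM (counts per M, mega, TMM scaled) in the controls and at 66.5 ± 30.1 CPM in those labelled Glut1-KO (SD, n = 5 each), and replicates 4 and 5 of the latter, at 92.4 and 103 CPM, lay within the control range of 73.2 to 118 CPM. The groups are therefore named by their labels throughout. Defining genes of the alveolar tumour epithelium were abundant, with 13 markers summing to between 27454 and 72081 CPM in the controls and between 49902 and 65353 CPM in those labelled Glut1-KO. T and NK cell markers summed to at most 2.03 CPM and 2.31 CPM per library in the respective groups, with only 2 of 12 such genes passing the filter on low counts.

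In the mouse genome (GRCm38, GENCODE M21), 7 of the 10 genes lie on chromosome 17 and all are protein coding. Psmb9, Tap1, Psmb8 and Tap2 are neighbours within 34335 bases, from 34181987 to 34216321. Tap1 (ENSMUSG00000037321, chr17:34187553-34197225, plus strand) and Psmb9 (ENSMUSG00000096727, chr17:34181987-34187764, minus strand) are read away from each other and overlap in 212 exon bases, 3.87% of the exon bases of Tap1 and 5.79% of those of Psmb9. The use of strand in counting was not given in the sources used here, so reads from that overlap could not be assigned to either gene with certainty. Psmb8 (ENSMUSG00000024338) spans chr17:34197721-34201454 and Tap2 (ENSMUSG00000024339) chr17:34203527-34216321, both on the plus strand. The classical heavy chain genes flank this block, H2-K1 (ENSMUSG00000061232) at chr17:33996017-34000347 on the minus strand and H2-D1 (ENSMUSG00000073411) at chr17:35262730-35267499 on the plus strand, with Tapbp (ENSMUSG00000024308) at chr17:33915899-33929292 on the plus strand. B2m (ENSMUSG00000060802) lies at chr2:122147686-122153083 on the plus strand, Psmb10 (ENSMUSG00000031897) at chr8:105935735-105938444 on the minus strand and Nlrc5 (ENSMUSG00000074151) at chr8:94434356-94527272 on the plus strand. Of the windows of 85 bases, the read length, in the longest coding transcript, 5.95% for H2-D1 and 0.456% for H2-K1 occurred identically in another gene, among them H2-Q genes, and H2-D1 and H2-K1 counts are uncertain to that extent. The share was 0.64% for Tapbp and 0 for the remaining genes.

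Promoter sequence is shown because several of these genes varied together across libraries. RefSeq (GRCm38.p6) gave a promoter window, 250 bases before to 50 bases after the transcription start, for 8 of the 10 genes, while Tap2 and Nlrc5 were not matched. Short motifs were searched by their letters on both strands, and motifs may overlap. CCAAT, the Y box, occurred in the windows of 6 of the 8 genes and in 37.4% of all 32851 windows. TGACG, the core of a cyclic AMP response element, occurred in 5 (H2-K1, H2-D1, B2m, Tap1 and Psmb9) against 20.8% of all windows, and AANNGAAA, a core of interferon regulatory factor elements, in 3 (H2-K1, H2-D1 and B2m) against 23.9%. GGGATTCC, a kappaB element, occurred in H2-K1 and H2-D1 and in 1.06% of all windows, and TTCNNNGAA, a gamma-activated site, in Psmb8 and in 8.3% of all windows. The window of Psmb10 held no match to these letters. The 250 bases before the start are printed for 4 genes with matches to these motifs in capitals, on the strand of the gene. The windows of H2-K1 and H2-D1 were identical at 217 of 241 aligned bases, or 90%. The windows of Tap1 and Psmb9 share 275 bases, since their start sites lie 226 bases apart. Their CCAAT and TGACG matches are the same bases, counted above once for each gene. The bases shown for Tap1 hold the start region of Psmb9 on the other strand.
H2-K1, chr17:34000334-34000583, minus strand: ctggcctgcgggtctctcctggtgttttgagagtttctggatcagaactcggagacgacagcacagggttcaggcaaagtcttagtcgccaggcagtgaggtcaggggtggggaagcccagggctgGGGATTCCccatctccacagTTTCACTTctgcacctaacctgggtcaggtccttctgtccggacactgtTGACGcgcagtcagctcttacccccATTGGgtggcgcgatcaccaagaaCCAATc
H2-D1, chr17:35262844-35263093, plus strand: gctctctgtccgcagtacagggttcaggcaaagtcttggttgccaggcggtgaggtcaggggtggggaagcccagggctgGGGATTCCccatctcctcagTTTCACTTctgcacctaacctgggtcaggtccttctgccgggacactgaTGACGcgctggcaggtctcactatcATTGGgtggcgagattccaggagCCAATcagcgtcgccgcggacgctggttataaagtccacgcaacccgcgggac
B2m, chr2:122147437-122147686, plus strand: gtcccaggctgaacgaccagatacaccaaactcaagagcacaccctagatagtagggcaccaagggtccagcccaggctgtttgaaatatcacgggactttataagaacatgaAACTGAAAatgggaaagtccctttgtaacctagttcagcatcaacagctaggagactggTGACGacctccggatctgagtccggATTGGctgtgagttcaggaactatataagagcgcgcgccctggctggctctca
Tap1, chr17:34187306-34187555, plus strand: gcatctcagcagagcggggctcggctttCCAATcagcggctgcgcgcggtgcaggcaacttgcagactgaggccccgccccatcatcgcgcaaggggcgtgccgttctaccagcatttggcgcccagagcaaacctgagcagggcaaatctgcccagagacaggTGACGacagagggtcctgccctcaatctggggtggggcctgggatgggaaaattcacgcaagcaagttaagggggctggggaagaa

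To learn whether class I genes differed with the Glut1 label, each was compared between 5 and 5 libraries. All 10 genes had a higher mean level in those labelled Glut1-KO, and none of them passed the test. Log2 fold changes from limma ran from 0.16 for Tapbp to 0.99 for Psmb9 with a median of 0.57, and Benjamini-Hochberg adjusted p-values over 15922 genes from 0.73 to 0.884. Over all genes tested, 49.3% had a fold change above 0 and the median was -0.0049. With limma 0 of the 10 genes were called at an adjusted p of 0.05 and 0 had an unadjusted p under that value, against 0% and 7.68% of all genes. The quasi-likelihood test of edgeR also called 0 of the 10 (0 unadjusted), against 0% of all genes (8.85% unadjusted), and DESeq2 called 0 (1 unadjusted), against 1.35% of all genes (10.8% unadjusted). Genes correlated as these are across libraries do not give 10 separate observations of a direction. In no gene did the groups separate, which 1.84% of all genes did.

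The heavy chains carry the peptide. H2-K1 was measured at 496, 295, 424, 381 and 295 CPM in Control replicates 1 to 5 and at 526, 607, 625, 407 and 281 CPM in Glut1-KO replicates 1 to 5. The 3 female libraries exceeded all controls, while Glut1-KO replicate 5 lay below all of them. Means were 378 ± 86.4 and 489 ± 145 CPM (SD, n = 5 each). The log2 fold change was 0.34 ± 0.24 (SE, limma adjusted p = 0.763, exact permutation p = 0.214). H2-D1, the heavy chain at the far end of the complex, was at 500, 219, 500, 423 and 314 CPM in the controls and at 568, 551, 635, 467 and 248 CPM in those labelled Glut1-KO. The pattern was that of H2-K1, with the 3 female libraries above all controls and replicate 5 near the lowest control. The log2 fold change was 0.33 ± 0.29 (SE, limma adjusted p = 0.810, exact permutation p = 0.317).

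B2m encodes beta-2 microglobulin, the light chain that every class I molecule needs. It was measured at 229, 65.7, 247, 175 and 104 CPM in the controls and at 221, 423, 251.5, 167 and 87.9 CPM in those labelled Glut1-KO. Only Glut1-KO replicates 2 and 3 were above the highest control, and the log2 fold change was 0.47 ± 0.45 (SE, limma adjusted p = 0.827, exact permutation p = 0.429). The lowest and highest library differed 6.44-fold, against 2.23-fold for H2-K1 and 2.9-fold for H2-D1.

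Tap1 and Tap2 form the peptide transporter. Tap1 was at 18.8, 6.87, 31.1, 18.7 and 17.2 CPM in the controls and at 30.1, 31.3, 50.8, 25.1 and 9.33 CPM in those labelled Glut1-KO. Control replicate 2 and Glut1-KO replicate 5 were the lowest of their groups, and 2 libraries labelled Glut1-KO exceeded all controls. The log2 fold change was 0.67 ± 0.49 (SE, limma adjusted p = 0.771, exact permutation p = 0.294). Tap2 was at 30.1, 9.74, 38.7, 26.3 and 23.4 CPM against 42.3, 38.3, 68.1, 39.6 and 16.5 CPM, with the same lowest libraries. Its log2 fold change was 0.71 ± 0.42 (SE, limma adjusted p = 0.730, exact permutation p = 0.214), and 3 libraries labelled Glut1-KO were above all controls. Tapbp encodes tapasin, which holds the empty heavy chain at the transporter. It varied less, from 83.3 to 162 CPM in the controls and from 95.2 to 190 CPM in those labelled Glut1-KO, with a log2 fold change of 0.16 ± 0.22 (SE, limma adjusted p = 0.884, exact permutation p = 0.540). Tapbp shares 149 exon bases with Zbtb22 on the same strand.

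Psmb8, Psmb9 and Psmb10 are the catalytic subunits of the immunoproteasome. Psmb8 was at 25.9, 5.16, 37.1, 18.6 and 20.6 CPM in the controls and at 41.5, 42.7, 70.9, 33.0 and 8.76 CPM in those labelled Glut1-KO. Its highest library exceeded its lowest 13.7-fold, the widest range of the 10 genes. The log2 fold change was 0.91 ± 0.63 (SE, limma adjusted p = 0.758, exact permutation p = 0.278). Psmb9 was at 7.95, 1.89, 11.2, 6.72 and 5.47 CPM in the controls and at 12.9, 14.98, 24.4, 13.1 and 2.69 CPM in those labelled Glut1-KO. It was the gene with most libraries labelled Glut1-KO, 4 of 5, above all controls, and replicate 5 was lower than 4 of the controls. Its log2 fold change was 0.99 ± 0.64 (SE, 95% interval -0.42 to 2.41, limma adjusted p = 0.748, exact permutation p = 0.222).

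Over the 10 libraries Psmb10 had r = 0.424 with Psmb8 and 0.396 with Psmb9. It was at 20.1, 15.3, 21.6, 17.9 and 15.3 CPM in the controls and at 27.5, 14.98, 22.9, 18.9 and 21.2 CPM in those labelled Glut1-KO, a range of 1.84-fold. Glut1-KO replicate 2, among the highest for Psmb8 and Psmb9, was the lowest library for Psmb10, and replicate 5, low for both, was in the upper part of its range. The log2 fold change was 0.22 ± 0.18 (SE, limma adjusted p = 0.789, exact permutation p = 0.278).

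Nlrc5 encodes the class I transactivator. It was the least abundant of the 10 genes, at 3.44, 0.742, 4.15, 2.32 and 1.11 CPM in the controls and at 3.04, 9.7, 5.01, 1.32 and 1.65 CPM in those labelled Glut1-KO, from 40 to 408 counts per library. Glut1-KO replicate 2 stood highest and Control replicate 2 lowest. The log2 fold change was 0.77 ± 0.63 (SE, limma adjusted p = 0.792, exact permutation p = 0.333).

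**Figure D1:**
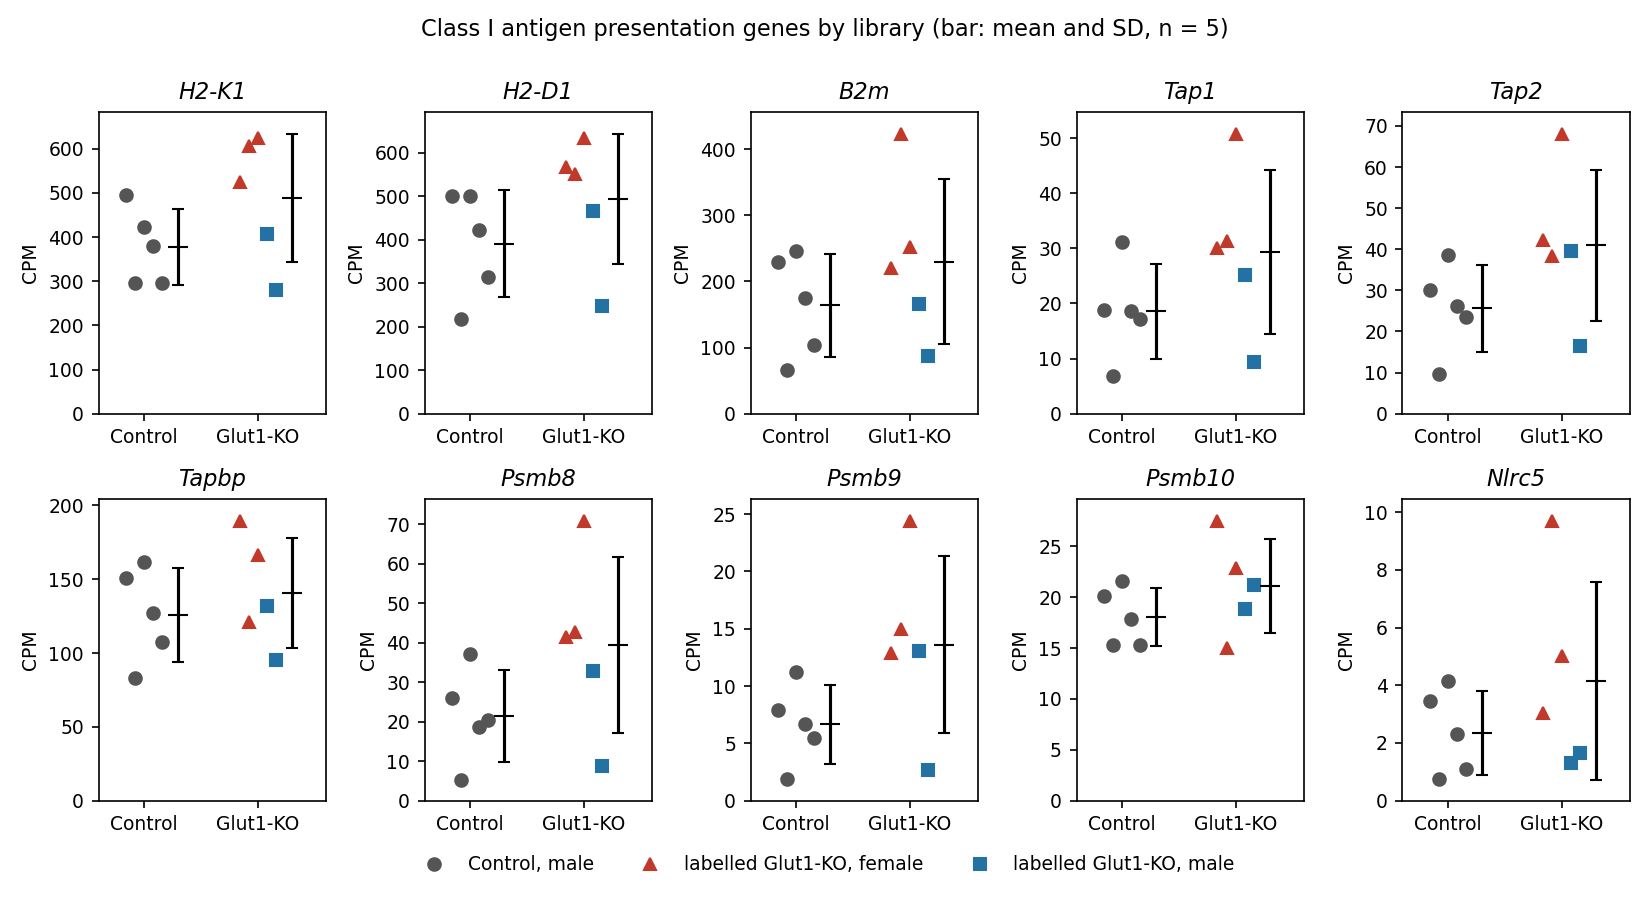
Level of each of the 10 genes in CPM (linear axis from 0), with 1 point per library and the mean and SD of each group of 5 beside the points. The groups overlap in every panel, the red triangles (female libraries labelled Glut1-KO) tend to lie high, and the right-hand blue square (Glut1-KO replicate 5) lies low except for Psmb10.

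The libraries labelled Glut1-KO were also set against the controls by sex. When the 3 female libraries labelled Glut1-KO were compared with the 5 male controls, log2 fold changes ran from 0.26 for Psmb10 to 1.62 for Psmb9 with a median of 1.03, all 10 above 0 as were 49.7% of all genes in that fit. An unadjusted p under 0.05 was found for 7 of the 10 genes and for 13.8% of all genes, and the smallest limma adjusted p was 0.242 (0.0548% of all genes were called). When the 2 male libraries labelled Glut1-KO were compared with the same controls, 7 of the 10 genes were below 0 and the median was -0.13, while 48.4% of all genes were above 0 (0.00597% called). Nlrc5 had the lowest value at -0.34 ± 0.74 (SE), B2m was at -0.28 ± 0.54, Psmb9 at 0.01 ± 0.81 and Psmb10 highest at 0.18 ± 0.20. No adjusted p passed in either comparison, and the difference between female and male libraries labelled Glut1-KO was not tested itself. Since no control was female, sex and the Glut1 label cannot be told apart for these 3 libraries. The same split also separated the libraries by Slc2a1, which was at 34.6 to 60.3 CPM in the 3 female ones, below all controls, and at 92.4 and 103 CPM in the male ones, a log2 difference from the controls of 0.06 (exact permutation p = 0.810 over 21 assignments). The male values, and those with sex as a covariate, thus rest on libraries whose Slc2a1 lay within the control range. The parts of sex and of Slc2a1 loss cannot be told apart. The 2 male libraries labelled Glut1-KO also share a name number, which may stand for the mouse, so they may not be separate animals. Controls share such numbers as well. Of single libraries, leaving out Glut1-KO replicate 5 gave a median log2 fold change of 0.90 with 6 unadjusted p-values under 0.05 (10.4% of all genes in that fit, 0% called) and a smallest limma adjusted p of 0.336, and leaving out Control replicate 2, the lowest control, gave a median of 0.28. The median was 0.36 without Glut1-KO replicate 2.

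**Figure D2:**
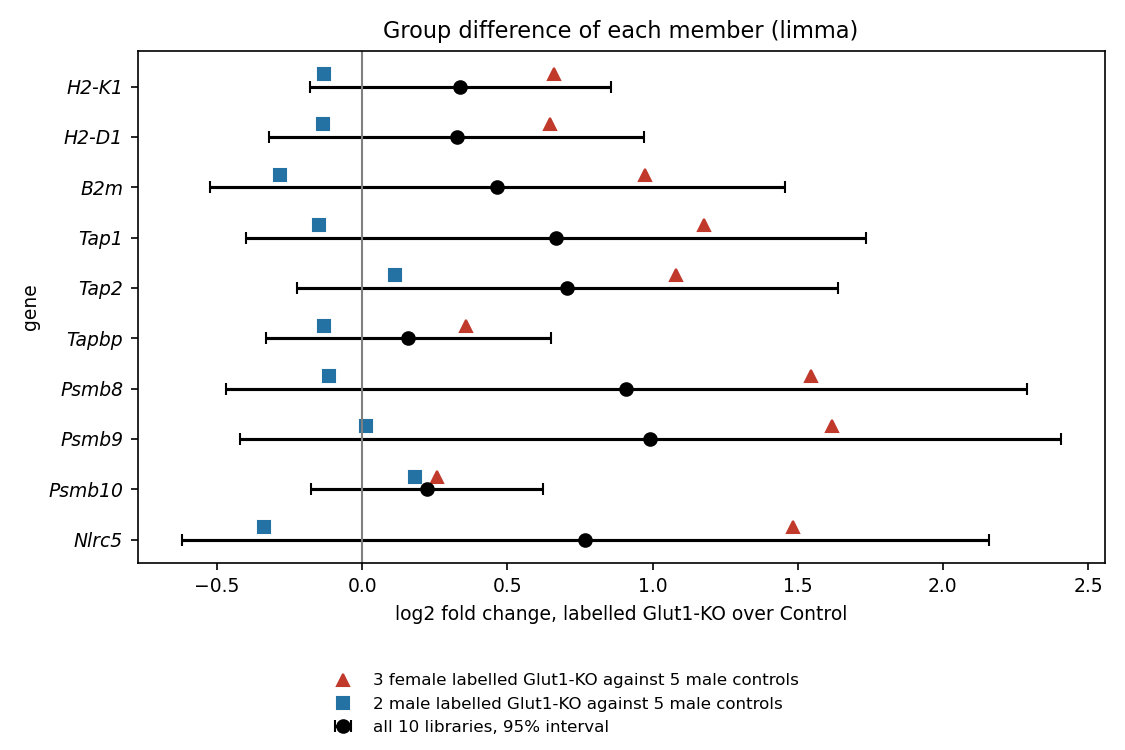
Log2 fold change of each gene, labelled Glut1-KO over Control. Black circles with bars give the limma estimate and its 95% interval over all 10 libraries, red triangles the female and blue squares the male libraries labelled Glut1-KO, each against the 5 male controls. All black intervals include 0, all red triangles are above 0, and 7 of 10 blue squares are below it.

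The spread between libraries of a group was wide for these genes. The residual SD on the log2 scale had a median of 0.785 over the 10 genes, against 0.351 over all genes tested, and was 1.11 for Nlrc5, 1.10 for Psmb8 and 1.09 for Psmb9 but 0.28 for Psmb10. A residual SD above that of Psmb9 was found in 8.95% of all genes. To order the libraries, the standardized log2 CPM of the 10 genes was averaged. Control replicate 2 was lowest at -1.67 and Glut1-KO replicate 5 next at -1.02, while Glut1-KO replicates 3, 1 and 2, all female, were highest at 1.17, 0.82 and 0.65. The remaining libraries lay between, Control replicates 5, 4, 1 and 3 at -0.72, -0.17, 0.28 and 0.54 and Glut1-KO replicate 4 at 0.12. Control replicate 2 was the lowest library for 8 of the 10 genes, and Glut1-KO replicate 3 the highest for 6. Control replicate 2 also had the lowest sums of alveolar epithelial markers (27454 CPM, the next lowest library being at 49902 CPM), endothelial markers (207 CPM) and pan-leukocyte markers (337 CPM), whose part in its class I levels was not tested.

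**Figure D3:**
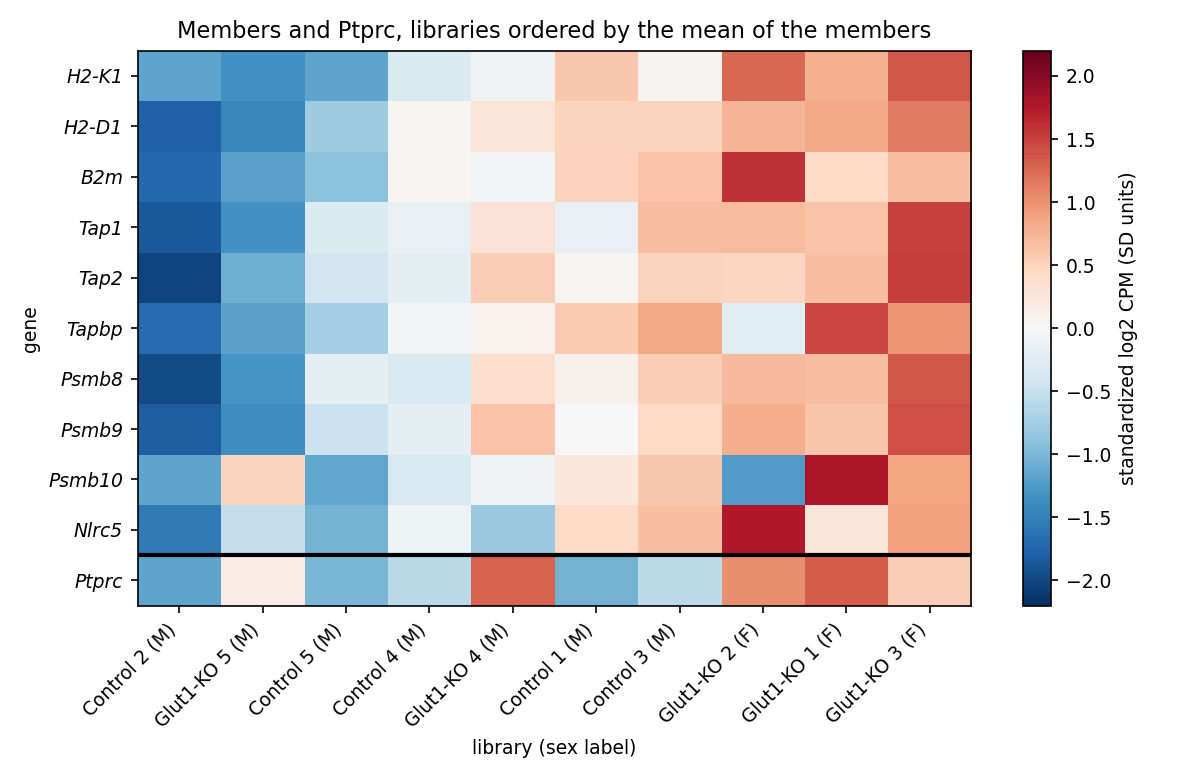
Standardized log2 CPM (SD units, blue low and red high) of the 10 genes and of Ptprc, below the black line, in each library, ordered by the mean of the 10 genes with the sex label in brackets. Most rows change colour together from Control replicate 2 on the left to Glut1-KO replicate 3 on the right, Psmb10 follows this order less, and Ptprc is high in Glut1-KO replicate 4, which lies in the middle.

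The 4 neighbouring genes Tap1, Tap2, Psmb8 and Psmb9 varied together from library to library. Over the 10 libraries, the 6 pairs among them had Pearson r between 0.984 and 0.991 on log2 CPM (permutation p = 1e-05, the smallest that 100000 permutations can give, for the pairs of Tap1, Tap2 and Psmb9, and 2e-05 for those with Psmb8, adjusted p = 0.000112 over 45 pairs, Spearman rho between 0.891 and 0.976). After subtraction of group means r was 0.981 to 0.990, and without the 2 libraries farthest from the median it was 0.967 to 0.982. Tap1 and Psmb9, which overlap in exon bases, had r = 0.987, and the part of that overlap was not tested. The points share library scaling and depth.

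Over all 45 pairs of the 10 genes, r ran from 0.254 to 0.991 with a median of 0.856. After adjustment 36 pairs passed with r and 34 with rho. The share of pairs of other genes that would pass was not computed, and these 45 pairs were added after the data were seen. Of the 9 pairs with Psmb10 only that with Tapbp passed, at r = 0.740 (permutation adjusted p = 0.0200), and the lowest was with B2m at 0.254. Glut1-KO replicates 1 and 2 lay farthest from the median of Psmb10, and without them its r with Nlrc5 was 0.840 in place of 0.264. Within the 7 male libraries that r was 0.784, and r of Psmb10 was 0.435 with Psmb8 and 0.426 with Psmb9. H2-K1 and H2-D1 were correlated at r = 0.928 (0.921 after subtraction of group means).

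Levels followed Nlrc5 to different degrees, a comparison made because Nlrc5 activates class I genes. The strongest relation was with B2m, at r = 0.934 and rho = 0.964 (10 libraries, permutation p = 8e-05 and adjusted p = 0.00152 for r over 19 relations). For H2-K1 r was 0.860 and for H2-D1 0.799, and Tap1, Psmb8 and Psmb9 followed at 0.749, 0.748 and 0.738 with permutation adjusted p-values of 0.0466. Tap2 at 0.717, Tapbp at 0.617 and Psmb10 at 0.264 did not pass this adjustment over 19 relations, although Tap2 passed that over the 45 pairs (permutation adjusted p = 0.0246). By rho 5 of the 9 relations passed, Psmb9 not passing (permutation adjusted p = 0.0533, against 0.0251 over the 45 pairs). Without Control replicate 2 and Glut1-KO replicate 2, the libraries farthest from the median of Nlrc5, r was 0.840 for B2m and between 0.591 and 0.840 for all 9 genes. Within the 7 male libraries r was 0.881 for B2m.

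**Figure D4:**
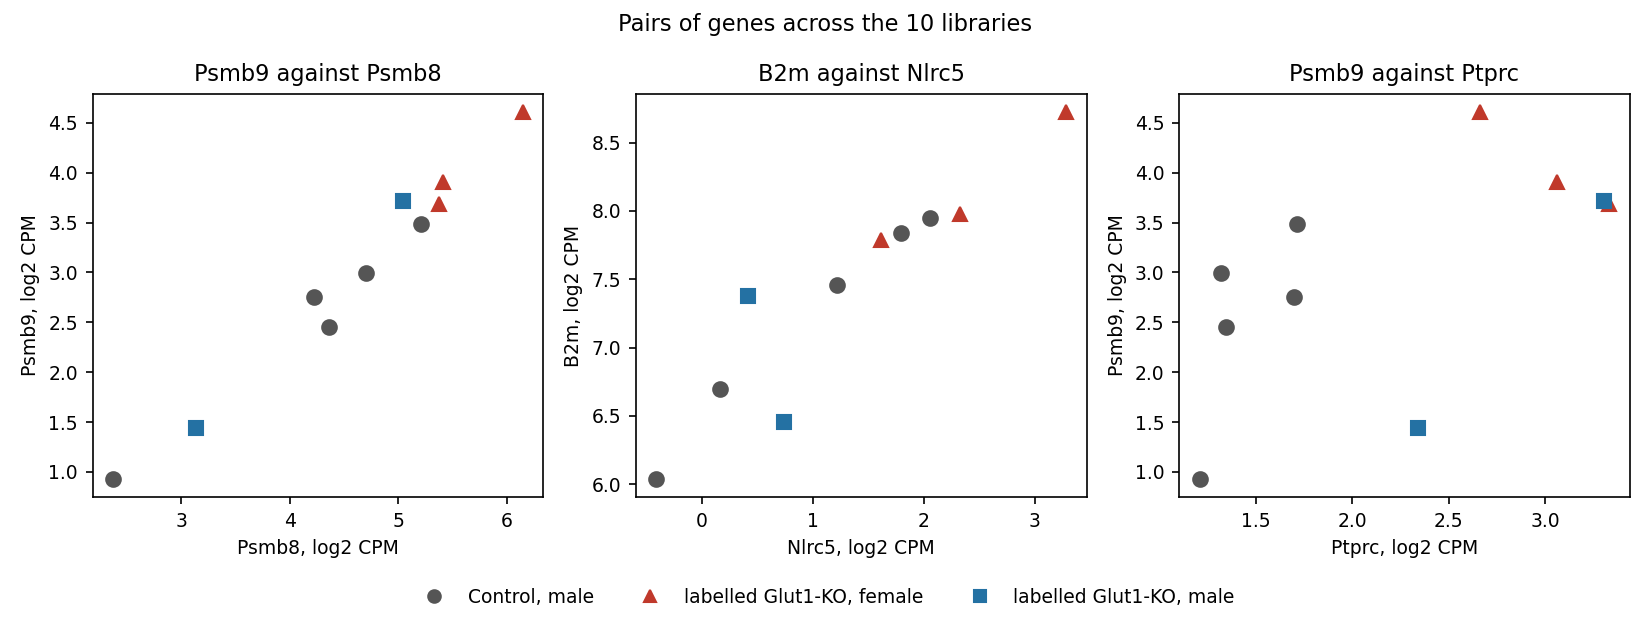
Log2 CPM of Psmb9 against Psmb8, B2m against Nlrc5 and Psmb9 against Ptprc, with 1 point per library. The left panel is the tightest (r = 0.989), the middle panel follows (r = 0.934), and in the right panel Glut1-KO replicate 5 has more Ptprc than any control but less Psmb9 than 4 of them (r = 0.607).

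Ratios within a library do not depend on the scaling between libraries, and 6 of them, per exon length, were compared by exact permutation with adjustment over the 6. The replacement of constitutive by induced catalytic subunits is read from Psmb8 to Psmb5, Psmb9 to Psmb6 and Psmb10 to Psmb7. Psmb9 to Psmb6 was 0.0380, 0.0129, 0.0501, 0.0365 and 0.0339 in the controls and 0.0666, 0.102, 0.154, 0.0915 and 0.0162 in those labelled Glut1-KO. All libraries labelled Glut1-KO but replicate 5 exceeded all controls, and the log2 difference of 1.14 did not pass (exact permutation p = 0.135, adjusted p = 0.405). Without Glut1-KO replicate 5 the difference was 1.66 with an adjusted p of 0.0476, so the call turned on that library, and in male libraries only the difference was 0.30. Psmb8 to Psmb5 averaged 0.0862 ± 0.0421 and 0.153 ± 0.100 (SD, n = 5 each, exact adjusted p = 0.698), with a 15.2-fold range over libraries. Psmb10 to Psmb7 averaged 0.375 ± 0.0671 and 0.461 ± 0.0865 (SD, n = 5 each, exact adjusted p = 0.405) and ranged over 1.89-fold only. By these values the constitutive subunits exceeded the induced ones in every library. The size of the ratios depends on the length used. All exons of Psmb8 and Psmb9 hold 3381 and 3660 bases, against 1628 and 1352 in their longest coding transcripts.

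The remaining ratios compare partner or alternative chains. Tap1 to Tap2 was 0.495 ± 0.0446 in the controls and 0.480 ± 0.0675 in those labelled Glut1-KO (SD, n = 5 each, exact adjusted p = 0.848), with a 1.44-fold range, while the level of Tap1 varied 7.39-fold and that of Tap2 6.98-fold. Among the libraries labelled Glut1-KO, the female ones were at 0.491 to 0.565 and the male ones at 0.392 to 0.437. H2-K1 to H2-D1 was 0.883 ± 0.175 and 0.880 ± 0.0983 (SD, n = 5 each, exact adjusted p = 0.937). H2-K1 to B2m was 0.784 ± 0.319 and 0.699 ± 0.183 (SD, n = 5 each, exact adjusted p = 0.848), with a 3.13-fold range. Control replicate 2 was the library with most H2-K1 per B2m, at 1.31, and Glut1-KO replicate 2 that with the least, at 0.420.

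**Figure D5:**
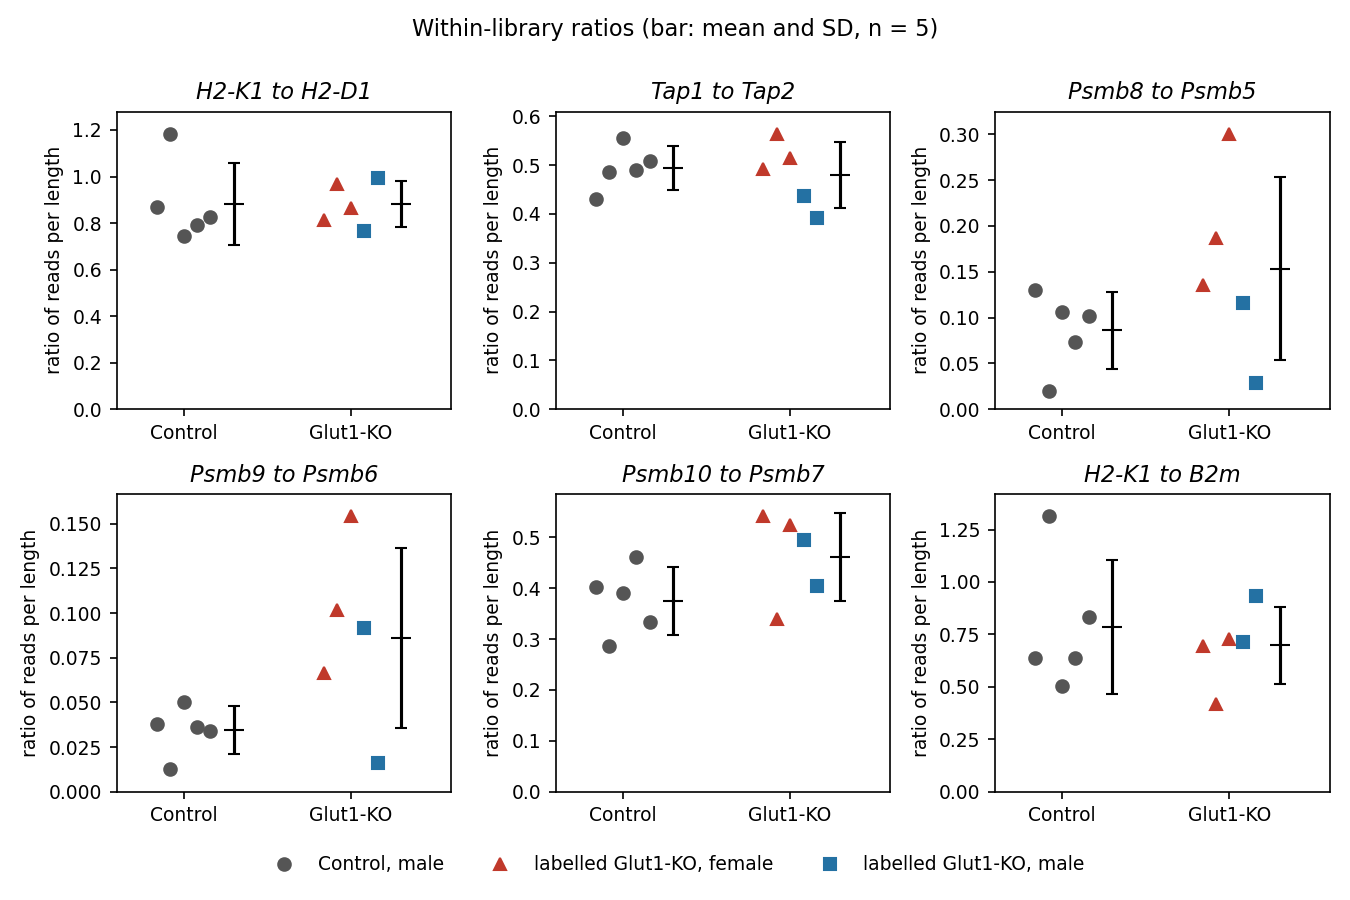
Ratio of reads per exon length within each library (linear axes from 0), with 1 point per library and the mean and SD of each group of 5. Psmb9 to Psmb6 runs from 0.0129 to 0.154, with 4 of 5 libraries labelled Glut1-KO above all controls, whereas Tap1 to Tap2 stays between 0.392 and 0.565.

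Compared per length in TPM (transcripts per M), B2m was the most abundant of the 10 genes in the controls, at 592 ± 251 TPM, followed by H2-D1 at 475 ± 118, H2-K1 at 407 ± 65.3 and Tapbp at 109 ± 20.2 TPM (SD, n = 5 each). Psmb10 at 33.6 ± 3.47, Tap2 at 21.1 ± 7.77 and Psmb8 at 19.7 ± 10.02 TPM came next, then Tap1 at 10.6 ± 4.49, Psmb9 at 5.63 ± 2.68 and Nlrc5 at 0.853 ± 0.496 TPM. The order held in all 10 libraries between H2-K1 and Tapbp, Tapbp and Psmb10, and at each step from Psmb8 down. Tap2 was above Psmb8 in 6 libraries, B2m above H2-D1 in 8, H2-D1 above H2-K1 in 9 and Psmb10 above Tap2 in 8, and the ranges of these neighbours overlapped. With the length of the longest coding transcript in place of all exons, the order began with H2-K1, B2m and H2-D1, and Psmb8 passed Tap2.

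Other genes of the pathway were counted from lists, for all of which edgeR called 0 genes. DESeq2 called 0 as well in the lists described here and in those of the next 2 paragraphs, H2-M2 and Cxcl10 excepted. Among 17 tested genes of other class I and class I-like chains, 16 were above 0, with a median of 0.52. By limma 0 were called (1 unadjusted). Over all genes 49.3% were above 0, 7.68% were unadjusted by limma and 1.35% passed with DESeq2. The listed chains summed to 155 to 256 CPM in the controls and to 250, 329, 404, 256 and 158 CPM in Glut1-KO replicates 1 to 5. H2-M2, a non-classical chain of low level, was at 0.633, 0.26, 0.469, 0.305 and 0.506 CPM in the controls and at 3.55, 2.35, 1.26, 0.982 and 0.815 CPM in those labelled Glut1-KO. Here the groups did not overlap, as in 1.84% of all genes. The log2 fold change was 1.88 ± 0.47 (SE, limma adjusted p = 0.365, DESeq2 adjusted p = 0.00849). H2-T24 had a log2 fold change of 1.04, and H2-T23, which encodes the Qa-1 chain, averaged 49.8 ± 7.49 and 60.6 ± 16.4 CPM (SD, n = 5 each). Its log2 fold change was 0.26. The 14 constitutive genes of the 20S proteasome had a median of -0.07, with 6 above and 8 below 0 and 0 called (0 unadjusted), Psmb2 being at -0.25, Psmb6 at -0.19 and Psma2 at -0.14. Of 4 proteasome activators 2 were above 0, with Psme3 at -0.30, Psme4 at -0.25 and Psme1, a subunit of the interferon-induced PA28 cap, at 0.21, and 0 were called (1 unadjusted). Of 10 genes of peptide trimming and loading 7 were above 0, 0 were called (0 unadjusted) and the median was 0.11. Tapbpl, a tapasin-related peptide editor, was at 0.29, Tpp2, a peptidase of the cytosol, at 0.15 and Thop1, which degrades peptides, at -0.44 on the log2 scale.

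Of 24 genes of interferon signalling and of factors of the class I promoter, 8 were above and 16 below 0. Over all genes 49.3% were above 0 and 7.68% were unadjusted by limma. The median of the 24 genes was -0.06, against -0.0049 over all genes, and 0 were called (1 unadjusted). A difference in direction from the 10 class I genes was not tested. Nfyc, a subunit of the factor that binds CCAAT, averaged 42.7 ± 1.83 CPM in the controls and 34.2 ± 6.32 CPM in those labelled Glut1-KO without overlap, a log2 fold change of -0.35 ± 0.14 (SE, limma adjusted p = 0.608). Jak1, a kinase of the interferon receptors, was at -0.38 and Socs1, its inhibitor, at -0.76. Of 31 tested interferon-stimulated genes 17 were above and 14 below 0, with a median of 0.03 and 0 called (1 unadjusted). Cxcl10, a chemokine for T cells, was at 10.4, 7.05, 5.16, 9.51 and 6.70 CPM in the controls and at 2.19, 2.19, 2.00, 1.17 and 3.08 CPM in those labelled Glut1-KO. All 5 were lower than any control, and the log2 fold change was -1.86 ± 0.29 (SE, limma adjusted p = 0.23, DESeq2 adjusted p = 1.48e-06). Groups without overlap were found in 1.84% of all genes, and DESeq2 called 1.35%. Cd274, which encodes the checkpoint ligand PD-L1, was at -0.46 and Mx2 at -0.67.

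All 7 genes of MHC class II, which present peptides from outside the cell, were above 0 with a median of 0.63 and 0 called (0 unadjusted). Of all genes 49.3% were above 0 and 7.68% were unadjusted by limma. H2-Eb1 had a log2 fold change of 0.72, H2-DMa of 0.71 and H2-Ab1 of 0.63. The summed level of the 7 genes was lowest in Control replicate 2, at 602 CPM, and next lowest in Glut1-KO replicate 5, at 1081 CPM, the libraries that were lowest for the class I genes as well, and reached 4387 CPM in Control replicate 3 and 4729 CPM in Glut1-KO replicate 3.

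Genes whose levels followed the mean of the 10 genes most closely within groups were sought among 15912 others. The highest Pearson r after subtraction of group means over the 10 libraries, as a description, belonged to Xaf1 on chromosome 11 at 0.977, Cyb561d1 on chromosome 3 at 0.974, Parp14 on chromosome 16 at 0.973, Fnbp1 on chromosome 2 at 0.972 and Rtp4 on chromosome 16 at 0.969. Xaf1, Parp14 and Rtp4 belong to the list of interferon-stimulated genes. Their log2 fold changes between the groups were 0.19, 0.20 and -0.26.

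Class I genes are expressed by tumour cells and also by leukocytes and endothelium, and in bulk RNA fewer cells of a type and less RNA per cell cannot be told apart. Marker lists of such cells differed in their values. Ptprc, which encodes CD45, the antigen used for depletion, was at 2.48, 2.30, 3.26, 3.23 and 2.53 CPM in the controls and at 10.1, 8.32, 6.31, 9.85 and 5.05 CPM in those labelled Glut1-KO. The groups did not overlap, also among male libraries only, and the log2 fold change was 1.47 ± 0.25 (SE, limma adjusted p = 0.23, DESeq2 adjusted p = 1.96e-06, exact permutation p = 0.00794, the smallest this design allows). All 20 pan-leukocyte markers were above 0 with a median of 0.90, 8 without overlap and 10 unadjusted, and 0 passed the limma test, 0 that of edgeR (11 unadjusted) and 7 that of DESeq2. Over all genes, 49.3% were above 0, 1.84% did not overlap, 7.68% were unadjusted by limma and 1.35% passed with DESeq2. The sum of the 20 pan-leukocyte markers ran from 337 to 497 CPM in the controls and from 352 to 642 CPM in those labelled Glut1-KO. It was lowest in Control replicates 2 and 5 and Glut1-KO replicate 5, at 337, 342 and 352 CPM. These libraries also had the lowest mean of the 10 class I genes. Glut1-KO replicates 3 and 1 were highest for both, with sums of 642 and 594 CPM. Between these the orders differed, Glut1-KO replicate 4 being at 504 CPM and Glut1-KO replicate 2 at 431 CPM. Ptprc alone gave another order, as Glut1-KO replicate 5 at 5.05 CPM lay above all controls. The relation of the sum with the class I genes was not tested. Among 9 tested macrophage markers 8 were above 0 (5 unadjusted, 0 called by limma, 2 by DESeq2, median 0.80), with C1qa at 0.88, C1qb at 0.99 and Fcgr1 at 1.10, and summed levels of 127 to 341 and 187 to 274 CPM. All 12 endothelial markers were above 0 (2 unadjusted, 0 called by limma or DESeq2, median 0.58), with sums of 207 to 609 and 393 to 773 CPM. Both tested T and NK cell markers were below 0 (Trac at -0.75, Cd4 at -0.77, 0 called by limma, edgeR or DESeq2, 0 unadjusted by limma), and of the 2 tested B cell markers Cd79a was at -0.61 and Cd79b at 0.49. B cell markers summed to 4.08 to 13.7 and 4.76 to 23.98 CPM, and fibroblast markers to 94.6 to 371 and 64.0 to 411 CPM. No marker of any list was at 0 in all libraries, and the part of these cells in the levels of the class I genes was not tested beyond the relation with Ptprc. That relation passed for 0 of the 10 genes by r or rho, r being 0.397 to 0.607 and permutation adjusted p-values for r 0.13 to 0.266, with unadjusted p-values for r of 0.0641 and above, while by rho 3 genes (Tap2, Psmb8 and Psmb9) had an unadjusted p under 0.05.

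Of 16 genes induced by tissue dissociation 15 were below 0 with a median of -0.35, 7 unadjusted, 0 called by limma, 0 by edgeR and 4 by DESeq2. In 4 of the 16 the groups did not overlap (1.84% of all genes, with 7.68% unadjusted and 1.35% called by DESeq2), and the sum of the 16 genes was 7190 to 9062 CPM in the controls and 4482 to 7269 CPM in those labelled Glut1-KO. Atf3 had a log2 fold change of -0.94, Klf6 of -0.90 and Jun of -0.74. The part of the handling of the tumours in the class I levels was not tested.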

How the data were processed

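Raw read counts per Ensembl gene were deposited by the authors as 1 file per library and as a combined table with symbols, whose 10 columns equalled the single files. Per the labels and the submitters' processing notes, stranded mRNA libraries were prepared from 500 ng of total RNA and sequenced, adapters were trimmed with cutadapt 1.4.2, reads were aligned with HISAT2 to mm10 and counted with featureCounts 1.4.4. The use of strand in counting and the annotation release were not given in the sources used here. A deposited table of log2 values was not used here. In the annotation (GENCODE M21, GRCm38), 37693 of 39017 identifiers (96.6%) were found.

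Counts were filtered with edgeR 4.0.16 filterByExpr (minimum count 10, minimum total 15), TMM scaled and passed through voom, with a prior count of 0.5, to limma 3.58.1 in R 4.3.3. TMM, voom and limma follow the study's stated scheme. Its filter was a mean TPM of at least 20 and is tried as an alternative. The group was the only term here, and the paper gives no model formula. P-values were adjusted by Benjamini-Hochberg over 15922 genes with a threshold of 0.05. Single genes and ratios were tested by 2-sided exact permutation over all assignments of the libraries (252 for 5 against 5, and 21 among male libraries, too few for a ratio on its own to pass the adjustment over 6), and correlations by 2-sided permutation with 100000 resamples, over 19 relations (9 with Nlrc5, 10 with Ptprc) and over 45 pairs of the members, a family added after the data were seen. TPM was computed from the exon lengths of the annotation. The fits were tested on simulated data. Alternatives were edgeR's quasi-likelihood test, DESeq2 1.42.0, other scalings and filters, sex as a covariate, each sex apart, blocks, and each library left out.

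Groups came from the titles. No label says that libraries came from separate animals, and name numbers shared by Control replicates 1, 2 and 5, by Control replicates 3 and 4, and by Glut1-KO replicates 4 and 5 may stand for the mouse, so p-values measure the spread between these libraries, which may be partly technical. Named were the 10 members, Ptprc and Slc2a1, at most 3 genes of each list with the smallest p, and the 5 genes that followed the members most closely. The members and lists were chosen with earlier results of these data known. Among the 10 members depth limits Nlrc5 most, at 40 counts in its lowest library. Some named genes of the lists were lower, such as H2-T24 at 0.111 CPM in Control replicate 2.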

Additional observations from a re-analysis of the deposited data

Results flagged for a closer look

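The ratio of Psmb9 to Psmb6, an induced and a constitutive catalytic subunit, was 0.0129 in Control replicate 2, far below the other controls on the log2 scale. Its gap to the nearest control was 0.711 of the range of the group, just past the limit of 0.71 for 5 samples. It was the 1 value past the limit among 32 groups of values examined. Chance gives about 1 in 20 groups, so 1 among 32 is not more than chance gives. The same library was lowest for 8 of the 10 class I genes.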

How the results depend on the processing

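The count of class I genes past the threshold was 0 in all 21 alternatives. The median log2 fold change of the 10 genes, 0.57, turned to -0.13 with sex as a covariate and to -0.13 in male libraries only. In these fits, respectively, H2-K1 was at -0.13 and -0.13, H2-D1 at -0.13 and -0.13, B2m at -0.28 and -0.28, Tap1 at -0.15 and -0.15, Tapbp at -0.13 and -0.13, Psmb8 at -0.11 and -0.11 and Nlrc5 at -0.34 and -0.34. Tap2, Psmb9 and Psmb10 stayed above 0 throughout. The median was 1.03 with the female libraries labelled Glut1-KO alone, ranged from 0.28 (without Control replicate 2) to 0.90 (without Glut1-KO replicate 5) when single libraries were left out, and was 0.34 under the filter of a mean TPM of at least 20, which left 7 of the genes, without Tap1, Psmb9 and Nlrc5. Other scalings, filters and tools gave 0.55 to 0.58. With single libraries left out, H2-K1 ran from 0.24 to 0.53, H2-D1 from 0.14 to 0.56, B2m from 0.18 to 0.77, Tap1 from 0.30 to 1.06, Tap2 from 0.36 to 1.02, Tapbp from 0.020 to 0.30, Psmb8 from 0.40 to 1.41, Psmb9 from 0.54 to 1.54, Psmb10 from 0.12 to 0.34 and Nlrc5 from 0.37 to 1.05. The count of all genes past the threshold, 0 with limma and edgeR, was 215 with DESeq2 (110 higher, 105 lower), 3 with sex as a covariate, 1 in males, 9 with the female libraries and 0 to 1 with single libraries left out, the 1 arising without Control replicate 3.

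Among the ratios, those of Psmb8 to Psmb5 and of H2-K1 to B2m turned to -0.34 and 0.14 in male libraries, and that of Psmb9 to Psmb6 was 0.30 there. With single libraries left out, H2-K1 to H2-D1 ran from -0.048 to 0.12, Tap1 to Tap2 from -0.11 to 0.021 and H2-K1 to B2m from -0.27 to 0.079, all around 0, Psmb9 to Psmb6 from 0.82 to 1.66 and Psmb8 to Psmb5 from 0.25 to 1.24. Where a value changed, the cause was not tested.

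Same-numbered libraries of the groups correlated between -0.132 and 0.197 in their deviations, so the numbers are not taken as pairs. With a replicate block the median was 0.57 and 0 genes passed, with a smallest limma adjusted p of 0.682 among the 10 genes. A random block by name number gave a median of 0.57 and a smallest limma adjusted p of 0.807. Among the 10 members depth limits Nlrc5 most.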
